A study of Mus musculus with 15 samples.

Results

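The genes described here are 35 mouse genes of the unfolded protein response and the integrated stress response, chosen by name. They comprise 15 chaperones and foldases of the endoplasmic reticulum (ER), 5 stress sensors and their transcription factors, 6 genes of ER-associated degradation, and 9 genes of the Atf4 pathway. The count table held 55450 genes, of which 15808 had enough reads to be tested, and all 35 of these genes were among them. Their RNA was measured by RNA sequencing of whole liver from 15 female C57BL/6 mice, with 1 library per mouse and 5 mice per group. Adult mice were 6 months old and Old mice 22 months old when the study began, and both received the corn oil vehicle. PDX mice were also 22 months old and received protectin DX, a lipid mediator derived from docosahexaenoic acid, at 30 ng per g of body weight in the same oil. All 15 mice were gavaged daily, for 9 weeks by the protocol and 8 weeks by the series' design text, so that handling and vehicle were shared by every group. No sex other than female was sequenced, there was no Adult group given PDX, and the livers were collected at different hours of the day. Collection followed the treatment, when all mice were older than the starting ages given here. The 15 mice are written A1 to A5 (Adult), O1 to O5 (Old) and P1 to P5 (PDX).

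Proteins that a hepatocyte secretes are folded in the ER, and a surplus of unfolded protein there is sensed by Ern1 (IRE1), Atf6 and Eif2ak3 (PERK). Ern1 splices the Xbp1 mRNA and Atf6 is cut to release a transcription factor, and both branches raise ER chaperones and degradation genes. Eif2ak3 phosphorylates the initiation factor eIF2, which lowers general translation while favouring translation of Atf4. Kinases that sense amino acid shortage, viral RNA or heme deficiency phosphorylate the same factor, so that Atf4 targets can also rise without ER stress, which is why this arm is called the integrated stress response. Counts per gene do not show splicing, cleavage, phosphorylation or translation, so that only the RNA outputs of these branches were measured.

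Libraries held between 22424383 and 36070835 counted read pairs. Normalization factors (TMM, which scales each library for its composition) lay between 0.884 and 1.08 in 14 mice, while O2 had 1.33. O2 and O5 stood apart from the other Old mice. O2 had the highest summed levels of T cell, B cell, neutrophil and macrophage markers among the 15 mice, with 171 CPM (counts scaled by library size and TMM factor) for 7 T cell markers against 2.597 to 28.2 CPM in the others. O5 had the lowest Alb (34724 CPM against 105807 to 115896 in Adult mice) and the highest frailty index of the 15 mice in the labels, 0.56. The labelled tissue matched its markers, with 63160 to 205900 CPM summed over 8 hepatocyte genes in every library. In whole tissue, fewer cells of a type and less RNA per cell cannot be told apart.

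In livers of Old mice 10 of the 15 ER chaperones and foldases were higher than in Adult livers, while no sensor, degradation gene or Atf4 pathway gene passed the same test. Of the 35 genes, 10 passed an edgeR quasi-likelihood test at an adjusted p under 0.05, all 10 of them chaperones or foldases and all 10 higher in Old mice. Among all 15808 genes tested, 4.71% were called higher and 2.07% lower in the same comparison. The median log2 fold change was 0.87 over the 15 chaperones, 0.10 over the sensors, 0.19 over the degradation genes and 0.46 over the Atf4 pathway genes, against 0.07 over all genes tested. All 15 chaperones had a positive fold change, as did 56.8% of all genes tested. The number called rested on each of the Adult mice: without A1 it was 5, without A2 2, without A3 1, without A4 2 and without A5 2, while the share of all genes called fell from 6.78% to between 0.970% and 1.51%. A fit of the Old and Adult mice alone called 2, with 0.698% of all genes called. Genes outside the chaperones passed under some settings: Asns with DESeq2 (adjusted p = 0.00949) and without O1, O3 or O4, and Selenos and Wfs1 with limma-voom, where 14.7% of all genes were called.

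**Figure D1:**
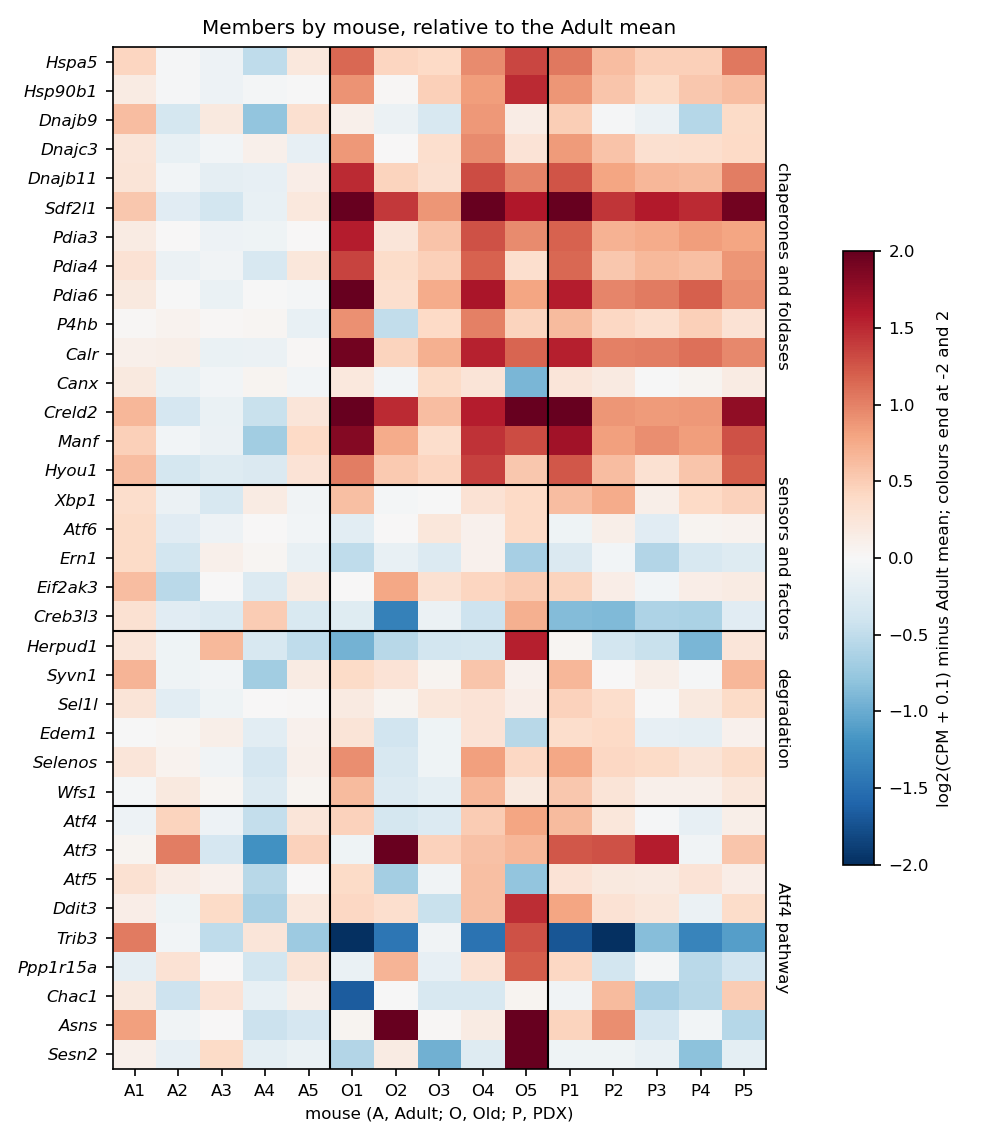
Level of each of the 35 genes (rows, grouped by role) in each of the 15 mice (columns), as the log2 difference from the mean of the 5 Adult mice, with colours ending at -2 and 2. Most chaperone rows are red in the 10 Old and PDX mice, palest in O2 and O3, while Sesn2, Asns, Trib3, Ddit3, Ppp1r15a and Herpud1 are reddest in O5.

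Sdf2l1 (ENSMUSG00000022769, chr16:17130138-17132383), a partner of the co-chaperone Dnajb11, changed most among the chaperones. Its level in the Adult mice was 32.2, 19.0, 17.1, 20.0 and 25.8 CPM, in the Old mice 167, 59.3, 40.9, 103 and 67.3 CPM, and in the PDX mice 135, 60.0, 66.9, 62.5 and 84.8 CPM. Each of the 10 older mice lay above the highest Adult mouse. The log2 fold change was 1.94 ± 0.35 (SE) for Old against Adult mice (edgeR adjusted p = 0.0110) and 1.84 ± 0.35 for PDX against Adult mice (edgeR adjusted p = 0.0121). Sdf2l1 passed the test in both comparisons under each of the 25 other settings that were run.

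Creld2, an ER resident with disulfide isomerase activity, and Manf, which slows the release of nucleotide from Hspa5, are typical small targets of the response. Creld2 was at 50.5, 25.2, 29.0, 23.2 and 37.5 CPM in Adult mice, 154, 89.4, 48.7, 94.9 and 138 CPM in Old mice and 133, 58.3, 57.3, 58.1 and 108 CPM in PDX mice. Adult mouse A1 lay above the lowest Old mouse, O3, and the other Adult mice lay below every Old mouse. The log2 fold change in Old mice was 1.66 ± 0.34 (edgeR adjusted p = 0.0171). Manf ranged over 53.8 to 121 CPM in Adult, 110.4 to 309.6 CPM in Old and 154 to 278 CPM in PDX mice, with a log2 fold change of 1.17 ± 0.29 in Old mice (edgeR adjusted p = 0.0297). Only O3 of the Old mice lay within the Adult range of Manf.

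Calr (ENSMUSG00000003814, chr8:84841850-84846934) encodes calreticulin, a lectin chaperone of the ER lumen that binds calcium and new glycoproteins. It was at 758, 766, 646, 651 and 721 CPM in the Adult mice, a narrow range, and at 2695, 961, 1159, 2061 and 1575 CPM in the Old mice. The PDX mice had 2086, 1426, 1439.5, 1522 and 1370.1 CPM. Neither older group overlapped the Adult mice, O1 and O4 were the highest Old mice, and P1 stood above the other PDX mice. Calr was 2.39-fold higher in Old mice (log2 fold change 1.25 ± 0.25, edgeR adjusted p = 0.0154) and 2.21-fold higher in PDX mice (1.15 ± 0.25, edgeR adjusted p = 0.0230). Its membrane-bound relative Canx, calnexin, which works in the same glycoprotein folding cycle, had means of 365 ± 32.7 (SD, n = 5), 375 ± 111 and 398 ± 27.6 CPM in Adult, Old and PDX mice. In Old mice the log2 fold change of Canx was 0.04 (95% interval -0.38 to 0.45), and the 3 groups overlapped.

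The protein disulfide isomerases form and rearrange disulfide bonds in folding proteins. Pdia6, which also acts on the sensor Ern1, was at 249.5, 216, 198, 215 and 211 CPM in Adult mice, 905, 275, 365, 675 and 374 CPM in Old mice and 649, 430.0, 449, 499 and 413 CPM in PDX mice. Every older mouse lay above every Adult mouse, by the smallest margin in O2. Pdia6 had a log2 fold change of 1.25 ± 0.28 in Old mice (edgeR adjusted p = 0.0233) and 1.16 ± 0.27 in PDX mice (edgeR adjusted p = 0.0352). Pdia3, the isomerase that works with calnexin and calreticulin, ranged over 326 to 395 CPM in Adult, 415 to 1037 CPM in Old and 567 to 796 CPM in PDX mice. Pdia3 rose by 0.99 in Old mice (edgeR adjusted p = 0.0222) and by 0.86 in PDX mice (edgeR adjusted p = 0.0466) on the log2 scale. Pdia4 rose by 0.79 in Old mice (edgeR adjusted p = 0.0450), with 172 to 262 CPM in Adult and 272 to 547 CPM in Old mice. The most abundant isomerase, P4hb, which is also the beta subunit of collagen prolyl 4-hydroxylase, was at 1373, 1411, 1365, 1391 and 1213 CPM in Adult mice and 2529.7, 956, 1771, 2705 and 1841 CPM in Old mice. O2 lay below every Adult mouse and the other Old mice above them, and P4hb did not pass the test (log2 fold change 0.54 ± 0.23, edgeR adjusted p = 0.138).

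Hspa5 (ENSMUSG00000026864, chr2:34771970-34777547) encodes BiP, the Hsp70 chaperone of the ER that also holds the sensors inactive, and Hsp90b1 encodes GRP94, its Hsp90 counterpart. Hspa5 was at 1219, 897, 844, 639 and 1048 CPM in Adult mice, 2005, 1226, 1200.3, 1747 and 2299 CPM in Old mice and 1884, 1396, 1269, 1268 and 1894 CPM in PDX mice. The log2 fold change was 0.87 ± 0.23 in Old mice (edgeR adjusted p = 0.0405) and 0.73 ± 0.23 in PDX mice (edgeR adjusted p = 0.103). O3 alone of the older mice lay below A1, the highest Adult mouse. Hsp90b1 was at 1027, 904, 851, 891 and 905 CPM in Adult mice, 1699, 929, 1265, 1632 and 2563 CPM in Old mice and 1688, 1337, 1186, 1334 and 1398 CPM in PDX mice. For both genes O5 was the highest of the 15 mice, whereas O1 was the highest for 8 chaperones and O4 for 4. These counts were not set against all genes tested. Hsp90b1 rose by 0.82 on the log2 scale in Old mice (edgeR adjusted p = 0.0416), and its value in PDX mice was 0.60 (edgeR adjusted p = 0.145). On the annotation used for lengths, 5.38% of the Hsp90b1 exon bases are shared with another gene on the same strand.

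The DnaJ co-chaperones pass clients to Hspa5 and stimulate its ATPase. Dnajb11 ranged over 80.3 to 109 CPM in Adult mice and, without overlap, 113 to 257 CPM in Old mice (log2 fold change 0.98 ± 0.22, edgeR adjusted p = 0.0242). In PDX mice it ranged over 141 to 217 CPM (log2 fold change 0.88 ± 0.22, edgeR adjusted p = 0.0426). Dnajc3, also known as P58IPK, an inhibitor of Eif2ak3, had a log2 fold change of 0.52 in Old mice (edgeR adjusted p = 0.0850). Dnajb9, a target of spliced Xbp1 that returns Ern1 to its inactive state, had means of 77.6 ± 27.8 CPM in Adult and 84.0 ± 29.4 CPM in Old mice. The log2 fold change of Dnajb9 was 0.11 (95% interval -0.49 to 0.71). Hyou1, a large chaperone that acts as nucleotide exchange factor for Hspa5, had 0.77 (edgeR adjusted p = 0.0752).

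Per length, the chaperones differed widely in level. In Adult mice the mean RPKM (CPM divided by the annotated exon length in kilobases) ran from 20.6 for Sdf2l1, 24.2 for Creld2 and 25.6 for Manf to 219.8 for Hspa5, 227 for Hsp90b1, 246 for Calr and 472 for P4hb. In Old mice Calr reached 587 and P4hb 685 RPKM. The 15 genes together took 0.527% to 0.656% of all counted pairs in Adult mice, 0.825% to 1.198% in Old mice and 0.812% to 1.14% in PDX mice, so that these shares did not overlap between Adult and older mice. After TMM scaling the summed CPM of O2, 6352, lay below that of A1, 6654.

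**Figure D2:**
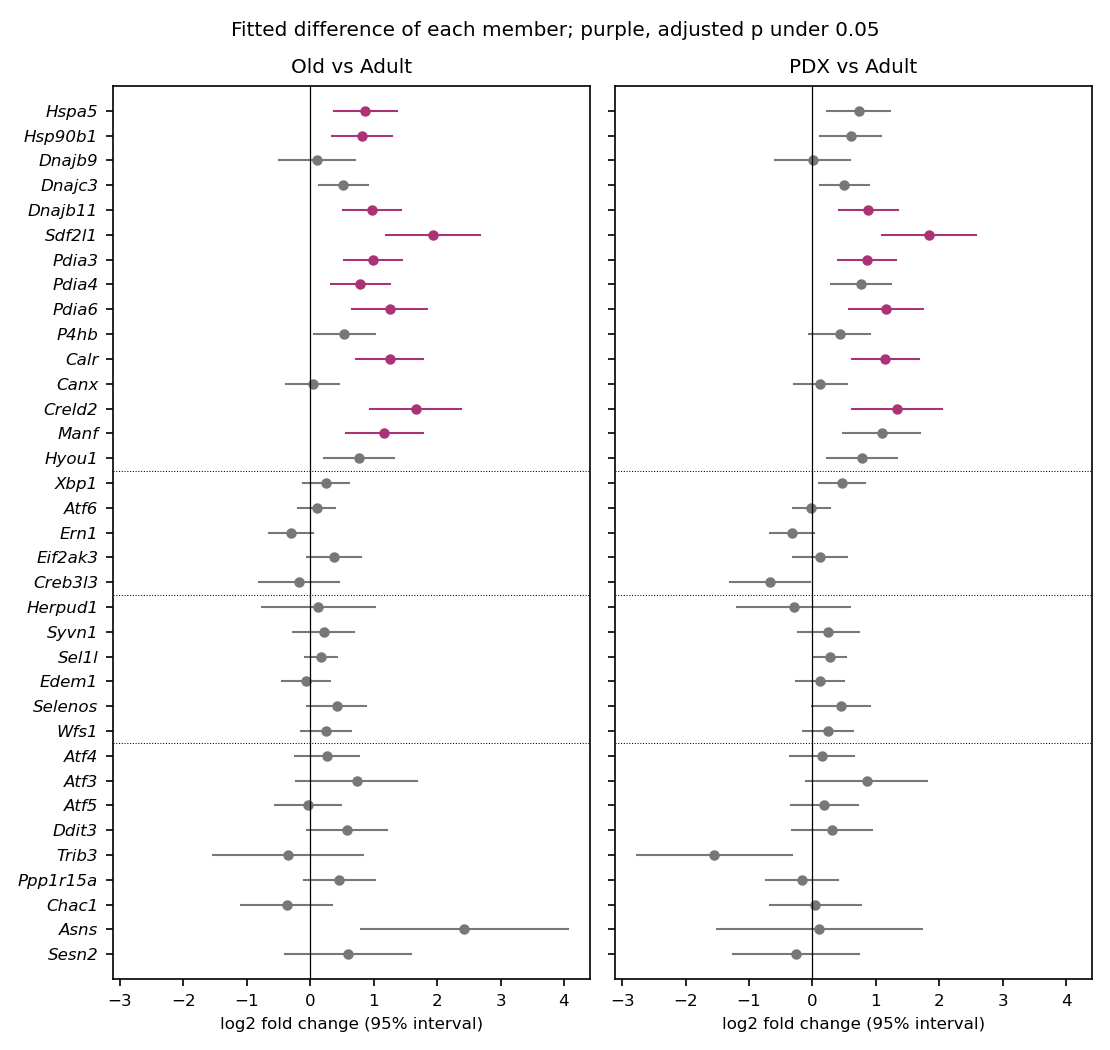
Fitted log2 fold change of each of the 35 genes with its 95% interval, for Old against Adult mice (left) and PDX against Adult mice (right), n = 5 mice per group, with genes that passed an edgeR adjusted p under 0.05 in purple. The purple points, 10 on the left and 6 on the right, are all chaperones and foldases, and the widest intervals belong to Asns and Trib3.

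In PDX mice, 6 of the 35 genes passed the test against Adult mice, namely Sdf2l1, Creld2, Calr, Pdia6, Pdia3 and Dnajb11. All 6 were higher, and among all genes tested 1.76% were called higher and 0.898% lower. For 12 of the 15 chaperones every PDX mouse lay above every Adult mouse, which was the case for 10.5% of all genes, and Old mice did so for 6 of the 15 against 3.65% of all genes. The median over the chaperones was 0.78, against -0.01 over all genes tested. The Adult mice are the same in both comparisons, so that the Old and PDX values are not independent of each other. In this fit all 15 mice share an estimate of the spread, and 2.66% of all genes were called in either direction. The number called was 10 without O2, 11 without O5, and 17 without both or with only the PDX and Adult mice in the fit, while the share of all genes called rose to 11.1%, 10.9%, 24.6% and 29.6% in these 4 fits. It was 1 without A2, A3, A4, A5, P1, P2 or P4, 2 without A1 or P3, and 3 without P5.

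No gene of the 35 passed the test between PDX and Old mice at an edgeR adjusted p under 0.25, nor did any of the 15808 genes (0%). At an unadjusted p under 0.05, 2 of the 35 and 5.28% of all genes passed, and DESeq2 called 1 gene of the whole table (0.00344%) and 0 of the 35. Over the chaperones the median difference was -0.10 on the log2 scale, against -0.07 over all genes. For Hspa5 the difference between PDX and Old mice was -0.14 with a 95% interval of -0.63 to 0.36, for Calr -0.11 (-0.63 to 0.41) and for Sdf2l1 -0.10 (-0.81 to 0.62). Each interval included 0.

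The Old mice varied more than the Adult or PDX mice. The median SD of log2 CPM over the chaperones was 0.190 in Adult, 0.531 in Old and 0.261 in PDX mice, and over all genes tested it was 0.205, 0.526 and 0.227. The Old mice were thus more variable across the whole table.

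The promoters of these genes are shown because a known DNA element links the chaperones to the sensors. The ER stress response element (ERSE), the letters CCAAT and CCACG with 9 bases of any kind between them, binds NF-Y at its CCAAT end and Atf6 or spliced Xbp1 at its CCACG end. On either strand of the 250 bases before each RefSeq start (GRCm38.p6), it was found in 7 of the 13 chaperones that have an entry. It was found in 37 of all 32851 windows (0.113%). In the sequences below the fixed letters of each element are in capitals.

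Hspa5: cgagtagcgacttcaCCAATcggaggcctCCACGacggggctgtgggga
Calr: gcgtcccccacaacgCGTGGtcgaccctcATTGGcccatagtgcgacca
Pdia6: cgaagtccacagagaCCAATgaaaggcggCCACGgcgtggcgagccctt
Creld2: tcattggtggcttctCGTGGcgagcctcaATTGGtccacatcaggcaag
Dnajc3: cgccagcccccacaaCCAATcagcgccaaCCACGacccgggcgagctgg
Canx: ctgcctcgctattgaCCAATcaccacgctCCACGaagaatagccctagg
Hsp90b1: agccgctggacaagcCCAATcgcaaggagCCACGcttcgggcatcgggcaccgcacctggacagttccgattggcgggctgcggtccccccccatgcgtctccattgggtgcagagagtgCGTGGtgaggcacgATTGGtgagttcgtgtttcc
Syvn1: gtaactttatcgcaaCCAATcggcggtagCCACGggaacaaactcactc
Herpud1: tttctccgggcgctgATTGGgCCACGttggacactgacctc
Asns: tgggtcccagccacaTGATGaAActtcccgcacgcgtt

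All are written 5′ to 3′ on the strand of the gene. Hspa5 is at chr2:34772010-34772058, Pdia6 at chr12:17266476-17266524, Creld2 at chr15:88819505-88819553, Dnajc3 at chr14:118937812-118937860, Syvn1 at chr19:6046517-6046565 and Herpud1 at chr8:94386362-94386402 on the plus strand. Calr is at chr8:84847060-84847108, Canx at chr11:50325785-50325833, Hsp90b1 at chr10:86705518-86705671 and Asns at chr6:7693210-7693247 on the minus strand. Hsp90b1 carried an ERSE in each orientation, and Calr and Creld2 carried it reversed. Of the chaperones with an ERSE, 5 of 7 passed the test in Old mice and their median was 0.87 on the log2 scale. Of those with a window but no match, 4 of 6 passed and their median was 0.88. Sdf2l1, with the largest fold change of the chaperones, had no match to these letters, while Canx, with the smallest, had a match. Canx and Calr both had a match, with log2 fold changes of 0.04 and 1.25 in Old mice. A match to letters does not show that the element is used, and its part in these fold changes was not tested.

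**Figure D3:**
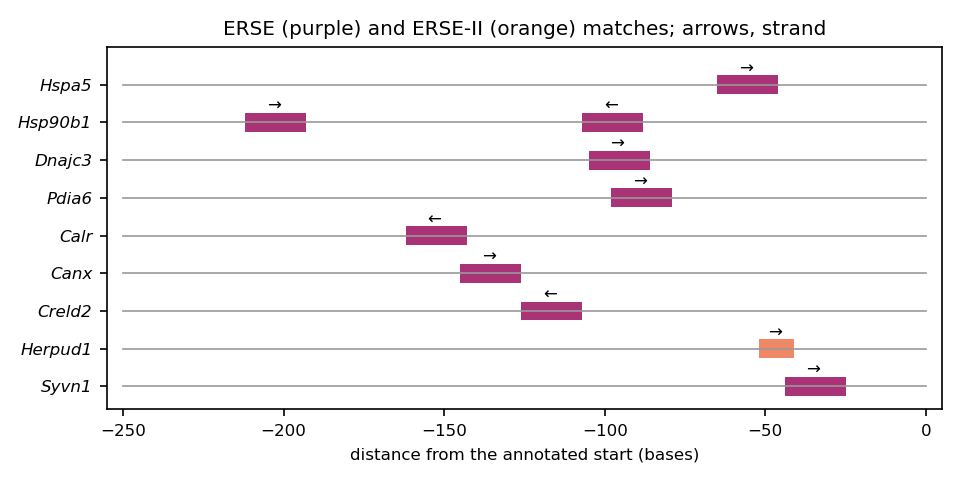
Position of each match to the ERSE (purple) or ERSE-II (orange) in the window before the annotated start, in bases, for the genes of the 35 that have a match, with arrows for the strand of the match relative to the gene. The matches lie between 26 and 212 bases before the start, and Hsp90b1 carries 2.

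Outside the chaperones the ERSE was found in Syvn1 of the degradation genes and in no sensor or Atf4 pathway gene. ERSE-II, the letters ATTGG and CCACG with any base between them, was found in Herpud1 and in 10 of 32851 windows (0.0304%). The Xbp1-binding letters TGACGTGG (0.563% of windows) and the amino acid response letters TGATGNAAT (0.816%) matched none of the 35. With the last letter left off, TGATGNAA, a search added after the first result was known, matched Asns, Atf3, Chac1 and Herpud1 and 3.45% of all windows. TGACGTCA, a cyclic AMP response element, matched Ppp1r15a and 1.55% of windows. Manf, Hyou1 and Atf6 had no entry.

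None of the 5 sensors and factors passed the test in any comparison. Xbp1, whose mRNA is both the substrate of Ern1 and a target of Atf6, was at 272, 196, 171, 238 and 204 CPM in Adult mice, 325, 208, 211, 261 and 281 CPM in Old mice and 326, 355, 230.4, 283 and 294 CPM in PDX mice. The groups overlapped, and the log2 fold change was 0.25 ± 0.17 in Old mice (edgeR adjusted p = 0.360) and 0.46 ± 0.17 in PDX mice (edgeR adjusted p = 0.146). Atf6 had means of 62.9 ± 10.7, 67.4 ± 10.7 and 61.9 ± 5.87 CPM in Adult, Old and PDX mice. Ern1 had 54.8 ± 10.6, 44.5 ± 9.22 and 44.0 ± 5.64 CPM, and Eif2ak3 had 16.5 ± 5.23, 21.5 ± 4.21 and 18.0 ± 2.37 CPM. Creb3l3, a liver and gut factor cut in the same way as Atf6 and known for acute phase and lipid genes, was at 320.3, 221, 215, 369 and 209 CPM in Adult, 218, 102, 238, 196 and 426 CPM in Old and 142, 141, 169, 168 and 221 CPM in PDX mice. O5 was the highest of the 15 mice and O2 the lowest, and the log2 fold change was -0.18 ± 0.30 in Old mice (edgeR adjusted p = 0.734).

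None of the 6 degradation genes passed the test either. Herpud1, which assembles the ubiquitin ligase complex at the ER membrane, was at 370.2, 293, 491, 251 and 220.0 CPM in Adult mice, 161, 212, 243, 243 and 919 CPM in Old mice and 319, 243, 228, 165 and 368 CPM in PDX mice. O5 was alone at the top, and the other Old mice lay within or below the Adult range. The Herpud1 log2 fold change was 0.13 with all Old mice and -0.60 without O5. Selenos, a selenoprotein of the same complex, ranged over 54.2 to 81.6 CPM in Adult, 55.0 to 130.4 CPM in Old and 81.7 to 118 CPM in PDX mice. Every PDX mouse lay above every Adult mouse, although by a margin of less than 1 CPM, and its edgeR adjusted p was 0.257. The log2 fold changes in Old mice were 0.21 for Syvn1, the ubiquitin ligase HRD1, 0.17 for its partner Sel1l, -0.06 for Edem1, which marks glycoproteins for disposal, and 0.25 for Wfs1, which promotes Atf6 degradation.

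In the Atf4 pathway no gene passed the test, and the median log2 fold change in Old mice, 0.46 over the 9 genes, was 0.11 without O5. Asns (ENSMUSG00000029752, chr6:7675169-7693254), the asparagine synthetase and a widely used readout of Atf4, was at 1.52, 0.775, 0.821, 0.585 and 0.631 CPM in Adult mice, 0.849, 4.27, 0.829, 0.929 and 16.6 CPM in Old mice and 1.14, 1.65, 0.631, 0.786 and 0.516 CPM in PDX mice. O5 was far above all others, O2 was next, and O1, O3 and O4 lay within the Adult range. The log2 fold change was 2.43 ± 0.77 in Old against Adult mice (edgeR adjusted p = 0.0638) and -2.32 ± 0.77 in PDX against Old mice (unadjusted p = 0.00838, edgeR adjusted p = 0.793). The first of these was 0.99 without O5 and 0.0089 without O2 and O5.

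Sesn2, a sestrin that restrains mTORC1, was at 14.9, 12.3, 18.1, 12.1 and 12.5 CPM in Adult mice, 9.13, 15.6, 7.05, 11.6 and 62.2 CPM in Old mice and 13.1, 13.0, 12.5, 7.82 and 12.0 CPM in PDX mice. Again O5 alone was high, and without it the log2 fold change in Old mice turned from 0.59 to -0.37. Trib3, a pseudokinase that dampens Atf4 and insulin signalling, was at 17.3, 8.10, 5.84, 9.92 and 5.05 CPM in Adult mice, 2.00, 3.01, 7.95, 2.93 and 20.4 CPM in Old mice and 2.49, 1.57, 4.61, 3.29 and 3.85 CPM in PDX mice. O5 and A1 were the highest of the 15 mice, the other Old mice had 2.00 to 7.95 CPM, and every PDX mouse lay below every Adult mouse, as in 9.34% of all genes. The log2 fold change of Trib3 was -1.55 ± 0.57 in PDX against Adult mice (unadjusted p = 0.0166, edgeR adjusted p = 0.146) and -0.35 ± 0.56 in Old against Adult mice, the latter being -1.22 without O5 (edgeR adjusted p = 0.0803).

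Ddit3 (ENSMUSG00000025408, chr10:127290774-127296288), which encodes CHOP, a factor of prolonged stress and cell death, was at 9.27, 7.96, 11.0, 5.38 and 9.84 CPM in Adult mice, 11.3, 10.7, 6.14, 12.9 and 23.8 CPM in Old mice and 14.7, 10.4, 9.90, 7.75 and 10.9 CPM in PDX mice. O5 was the highest mouse and the groups overlapped (log2 fold change in Old mice 0.58 ± 0.30, edgeR adjusted p = 0.216, and 0.24 without O5). A second overlapping entry for the gene held 0 counts in every library, and reads in exons common to both entries may have been assigned to neither, so that its level is uncertain. Ppp1r15a, which encodes GADD34, the phosphatase subunit that restores translation, was at 10.1, 14.0, 11.5, 8.82 and 13.8 CPM in Adult, 10.5, 18.4, 10.3, 14.0 and 26.7 CPM in Old and 15.3, 8.83, 11.2, 7.86 and 8.77 CPM in PDX mice. O5 was again the highest, O2 the second, and the log2 fold change was -0.62 ± 0.26 in PDX against Old mice (unadjusted p = 0.0325, edgeR adjusted p = 0.793).

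Atf4 itself was at 113, 165, 113, 87.5 and 143 CPM in Adult mice, 167, 95.4, 100.1, 172 and 210.2 CPM in Old mice and 188, 142, 119, 108 and 132 CPM in PDX mice, with overlap between all groups and O5 highest. Its log2 fold change was 0.26 ± 0.24 in Old mice (edgeR adjusted p = 0.503), and its activity is set mainly at translation. Chac1, which breaks down glutathione and is a sensitive target of the pathway, was at 2.89, 1.87, 3.05, 2.27 and 2.70 CPM in Adult mice, 0.722, 2.52, 2.00, 2.01 and 2.63 CPM in Old mice and 2.41, 3.97, 1.55, 1.68 and 3.61 CPM in PDX mice. O5 lay within the Adult range of Chac1, unlike for Asns and Sesn2. Atf3, an immediate stress factor, was highest in O2 (14.8 CPM), against 1.54 to 7.64 CPM in Adult mice, and its log2 fold change in Old mice was 0.73 ± 0.45, or 0.27 without O2. Atf5, a relative of Atf4 and by far the most abundant of the 9 in liver with 264 RPKM in Adult mice against 52.7 for Atf4, was lowest of the 15 mice in O5 (299.8 CPM). In Old mice the log2 fold change of Atf5 was -0.03.

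**Figure D4:**
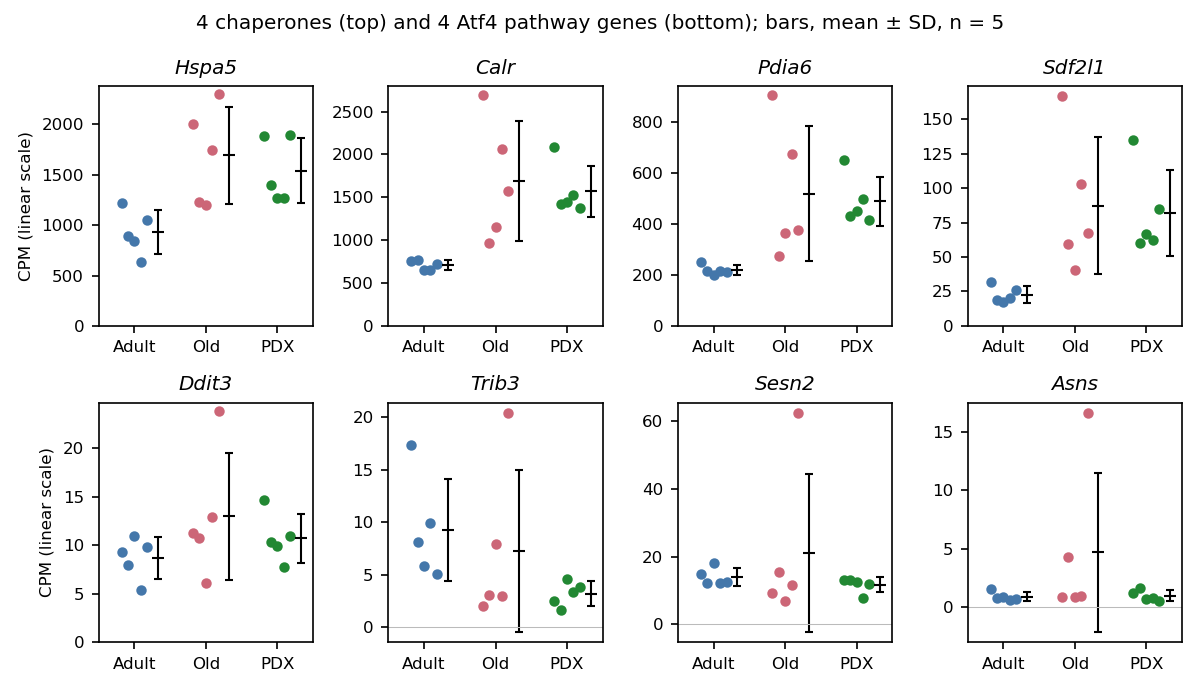
CPM of 4 chaperones (top) and 4 Atf4 pathway genes (bottom) in each mouse, on linear axes that start at or below 0, with the mean and SD of each group of 5 beside the points. For Calr, Pdia6 and Sdf2l1 all Old and PDX mice lie above the Adult mice, whereas for Asns and Sesn2 the mean of the Old group sits above the other groups through O5, at 16.6 and 62.2 CPM.

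Set side by side for each mouse, the means over the chaperones and over the Atf4 pathway genes ranked the Old mice differently. The mean log2 difference of the 15 chaperones from the Adult mean was 1.37 in O1, 0.39 in O2, 0.45 in O3, 1.227 in O4 and 0.84 in O5. Over the 9 Atf4 pathway genes it was -0.36 in O1, 0.33 in O2, -0.20 in O3, 0.08 in O4 and 1.24 in O5. By these means O1 and O4 were highest for the chaperones and near or below the Adult mean for the Atf4 pathway genes. The median over the 9 genes was -0.08 in O1 and 0.29 in O4. In O1, 3 of the 9 (Atf4, Atf5 and Ddit3) lay above every Adult mouse and 3 (Trib3, Chac1 and Sesn2) below. In O4, 4 lay above (Atf4, Atf5, Ddit3 and Ppp1r15a) and 2 below (Trib3 and Sesn2). Some margins were small, as for Atf4 in O1 (167 CPM against 165 in A2). O5 was highest of the 15 mice for 6 of the 9 Atf4 pathway genes. How often O5 was highest over all genes tested was not counted, so this count cannot be called particular to the pathway. The SD of log2 CPM was larger in Old than in Adult mice for 90.4% of all genes tested. The 5 PDX mice lay between 0.61 and 1.231 for the chaperones and between -0.38 and 0.22 for the Atf4 pathway genes, the latter within the Adult range of -0.42 to 0.27. The chaperone value exceeded the Atf4 pathway value in all 5 PDX mice, by 0.586 to 1.015, and in 4 of 5 Old mice. These are descriptions of individual mice, and each mouse is 1 library.

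**Figure D5:**
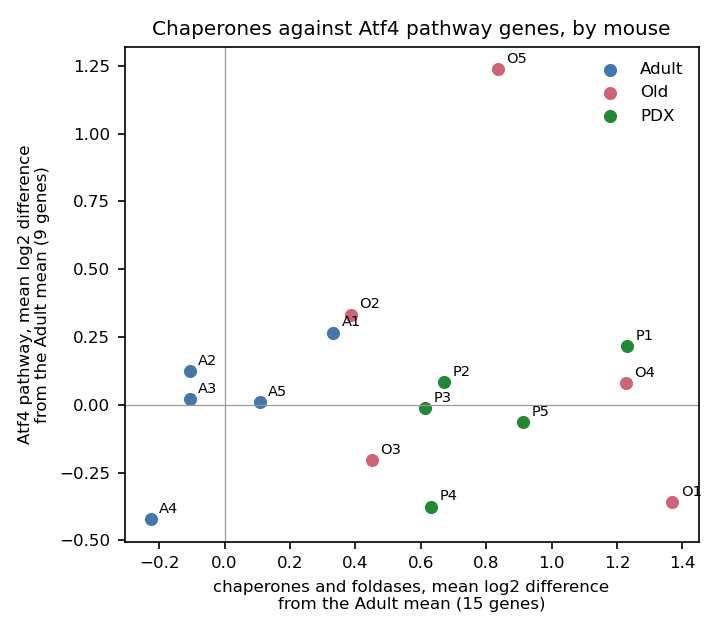
Each point is a mouse, placed by its mean log2 difference from the Adult mean over the 15 chaperones (horizontal) and the 9 Atf4 pathway genes (vertical), coloured by group. The PDX mice and O1, O3 and O4 spread along the horizontal axis, while O5 stands alone at 1.24 on the vertical axis.

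Several other measures also differed between mice or groups, and their part in the results was not tested. O5, the highest mouse for Asns, Sesn2, Ddit3 and Herpud1, also had Igfbp1, a gene that responds to feeding and insulin, at 5504 CPM against 20.3 to 224 in Adult mice. Igfbp1 was 1 of 8 listed feeding genes. In Old against Adult mice 4 of them had a positive and 4 a negative fold change, with a median log2 value of -0.0066 and 0 called. O5 also had Hp, an acute phase protein, at 15573 CPM against 2348 to 2782 in Adult mice, and P2 had 15058 CPM. The summed acute phase list was 8065 to 9557 CPM in Adult, 10850 to 49720 CPM in Old and 15090 to 51990 CPM in PDX mice. This sum too was higher in all older mice than in any Adult mouse. Of the 8 acute phase genes 4 were called higher in Old mice and 6 in PDX mice, where 4.71% and 1.76% of all genes were. Among clock genes, A4 stood apart from the other Adult mice with Dbp at 189 CPM and Arntl at 2.45 CPM, and O3 had Dbp at 56.7 CPM. Summed over 12 clock genes, O5 was the highest of the 15 mice at 866 CPM, and A4 had 828 CPM. The clock sum was 310 to 828 CPM in Adult, 182 to 866 CPM in Old and 192 to 298 CPM in PDX mice. Every PDX mouse thus lay below every Adult mouse for this sum, and 0 of the 12 genes were called in any comparison. In PDX against Adult mice the median log2 fold change over the 12 was -1.08, against -0.01 over all genes tested. A4 had the lowest mean over the chaperones among the Adult mice, O3 and O2 the lowest among the Old mice. Without A4 and O3, a choice made after seeing these values, the test called 7 of the 35 genes in Old mice and 1 in PDX mice, with 6.11% and 1.56% of all genes called.

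Markers of several immune cells were also higher in older livers, among them those of plasma cells, which express ER chaperones strongly, and their part in the chaperone levels was not tested. Of 11 plasma cell markers, 10 were tested and 7 were called higher in Old mice, where 4.71% of all genes were. Tnfrsf17 had too few reads to be tested. The summed level was 365 to 588 CPM in Adult, 661 to 1239 CPM in Old and 673 to 1280 CPM in PDX mice, but most of the Adult sum was Sdc1, which was not called (322 to 558 CPM in Adult and 187 to 535 CPM in Old mice). Ighm, the constant region of IgM, was at 17.4, 12.1, 28.0, 19.0 and 22.4 CPM in Adult and 235, 612, 181, 164 and 153 CPM in Old mice, highest in O2. Jchain and Igha were highest among Old mice in O1 (15.9 and 28.3 CPM), and Mzb1 in O2 (6.23 CPM). Of 6 tested neutrophil markers 5 were called higher in Old mice and 1 in PDX mice, and of 6 macrophage markers 3 and 1. Among all genes, 4.71% were called higher in Old mice and 1.76% in PDX mice. In Old mice 0 of 7 T cell markers and 0 of 6 Kupffer cell markers were called. Of 6 B cell markers 3 were called higher and 1, Cr2, lower (log2 fold change -3.70, edgeR adjusted p = 0.0121). The macrophage sum was 73.5 to 125 CPM in Adult, 152 to 1129 CPM in Old and 196 to 598 CPM in PDX mice, and the neutrophil sum was 2.58 to 6.57, 9.39 to 164 and 14.8 to 54.5 CPM. None of the 25 other settings adjusted for cell content, and under them the median over the chaperones in Old mice lay between 0.81 and 1.18.

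A wider list of 118 pathway genes, of which 117 were tested, was chosen by known function. In Old mice 14 of them (12.0%) passed the test, all higher, with a median of 0.19 over the 117, where 6.78% of all genes passed. In PDX mice 2 passed (1.71%), Derl3 and Wars, where 2.66% of all genes did. The 14 were 5 of 26 folding genes, 3 of 28 genes for entry into the ER and signal or sugar processing, 1 of 21 degradation genes, 4 of 30 integrated stress response targets and 1 of 12 tRNA synthetases. The number in Old mice was 1 to 4 when any of the Adult mice was left out, 8 without P4 and 28 without O5. In PDX mice it was 0 without A2, A4 or A5, 1 without A1, A3, O4, P1, P2, P3 or P4, 6 without O1, 11 without O2 and 17 without O5.

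Derl3, a derlin of the ER degradation channel that is also on the plasma cell list, was at 1.21, 0.458, 0.0912, 0.512 and 0.545 CPM in Adult mice, 12.3, 4.33, 1.58, 18.7 and 21.5 CPM in Old mice and 9.51, 2.41, 8.49, 12.1 and 3.44 CPM in PDX mice. All older mice lay above the Adult mice, and the highest were O5, O4 and O1 and not O2. Its log2 fold change was 4.32 ± 0.74 in Old (edgeR adjusted p = 0.00836) and 3.62 ± 0.72 in PDX mice (edgeR adjusted p = 0.0156). Fkbp11, a prolyl isomerase of secretory cells, ranged over 2.55 to 5.31 CPM in Adult mice and was at 40.9, 6.85, 7.24, 26.9 and 6.42 CPM in Old mice. It too was highest in O1 and O4, and its log2 fold change was 2.25 ± 0.52 (edgeR adjusted p = 0.0259).

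The 4 integrated stress response targets that passed were Phgdh (2.97, edgeR adjusted p = 0.0173) and Psat1 (2.05, 0.0192) of serine synthesis, the mitochondrial folate enzyme Mthfd2 (1.99, 0.0297) and the cationic amino acid carrier Slc7a1 (2.15, 0.0242). All were low in liver, and the Old mice had 0.425, 2.84, 1.73, 0.260 and 0.721 CPM of Phgdh and 2.21, 13.7, 1.62, 3.01 and 2.99 CPM of Mthfd2. The highest Old mouse was O2 for each of the 4, the mouse with the highest immune cell markers, whereas Asns and Sesn2 were highest in O5. The part of those cells in the levels was not tested. The Old mice had 1.49, 9.54, 3.62, 1.41 and 8.15 CPM of Slc7a1, where O5 was close to O2. The other genes called had smaller differences, from 0.50 for Calu, a calcium-binding protein of the lumen, through 0.54 for Uggt1, 0.57 for Spcs2, 0.59 for Wars, 0.68 for Erp29, 0.73 for Dnajc10 and 0.77 for Rpn1 to 0.88 for Sec11c, a signal peptidase subunit.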

How the data were processed

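RNA from 15 livers was made into stranded poly(A) libraries and sequenced as read pairs. The authors aligned them with STAR 2.6.0c to mm10 and counted uniquely mapped, properly paired reads per Ensembl gene with featureCounts (Subread 1.6.2), so the deposited values are raw counts of non-mitochondrial genes. The authors also deposited log2-scale values from the variance-stabilizing transformation of DESeq2 1.23.10. Here the counts were tested with edgeR 4.0.16 (quasi-likelihood, TMM, filterByExpr with a minimum count of 10 and total of 15, all 15 mice in the fit) in R 4.3.3, with Benjamini-Hochberg adjustment over all 15808 genes and thresholds of 0.05 (Old or PDX against Adult) and 0.25 (PDX against Old). CPM use TMM factors, and per-mouse log2 differences a prior count of 2. Lengths for RPKM came from GENCODE M21, not the annotation used for counting. Alternatives were DESeq2 1.42.0, limma 3.58.1 (voom, or on the deposited log2 values), other filters and factors, and mice left out. The script was tested on simulated counts. The members, lists and tests were chosen with earlier results of these data known. Named were all 35 genes, in full those past a threshold and Hspa5, Hsp90b1, Xbp1, Atf4, Ddit3, Trib3, Asns and Chac1, and of the wider list the 5 largest rises and falls among genes past the threshold in each comparison (no fall passed it). The remaining called genes of that list are given by fold change only. Depth was 22424383 to 36070835 pairs. The p-values set the difference between groups against the spread between mice, which all groups shared in the main fit.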

Additional observations from a re-analysis of the deposited data

Results flagged for a closer look

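In 10 of the 105 groups of 5 mice examined, for 35 genes in 3 groups, the gap between the highest or lowest mouse and its neighbour exceeded Dixon's critical value of 0.71 of the range; chance flags about 1 in 20. O5 stood apart in 3 genes of the Old group: Herpud1 at 919 CPM against 161 to 243 in the other Old mice, Asns at 16.6 CPM against 0.829 to 4.27, and Sesn2 at 62.2 CPM against 7.05 to 15.6. O2 stood apart for Atf3 at 14.8 CPM against 3.48 to 5.95. P1 stood apart in 3 genes of the PDX group, with Pdia3 at 796 CPM against 567 to 629, Calr at 2086 CPM against 1370.1 to 1522 and Selenos at 118 CPM against 81.7 to 91.6. P4 was low for Sesn2 at 7.82 CPM against 12.0 to 13.1. Among Adult mice A1 was high for Asns at 1.52 CPM against 0.585 to 0.821, and A5 low for P4hb at 1213 CPM against 1365 to 1411.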

How the results depend on the processing

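The count of the 35 genes called in Old against Adult mice was 10, ran from 1 to 11 when a mouse was left out, was 2 with only these groups in the fit and 7 to 15 under the other settings. In PDX against Adult mice it was 6, from 1 to 11 with a mouse left out, 18 with limma-voom, 2 with no low-count filter, 17 with only these groups or without O2 and O5, and 1 without A4 and O3. Between PDX and Old mice it was 0 under all settings. Of the wider list, 14 were called in Old mice, from 1 to 28 with a mouse left out, 53 with limma-voom, 6 with limma on the deposited values, 9 with no filter, 1 with only these groups, 33 without O2 and O5 and 4 with the replicate block. In PDX mice 2 were called, from 0 to 17 with a mouse left out, 11 with DESeq2, 50 with limma-voom, 1 with DESeq2 size factors or no filter, 47 with only these groups and 36 without O2 and O5. The median over the Atf4 pathway genes in Old mice, 0.46, was 0.0089 without O2 and O5. The causes were not tested, beyond the fewer mice or the unshared spread of each fit. The share of all genes called moved too, and was 14.7% in Old and 33.3% in PDX mice with limma-voom.

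Fold changes in Old mice that turned sign belonged only to genes that were not called. With a mouse left out, the values ran from -0.12 to 0.29 for Dnajb9, from -0.060 to 0.20 for Canx, from -0.50 to 0.020 for Creb3l3, from -0.60 to 0.35 for Herpud1, from -0.16 to 0.038 for Edem1, from -0.24 to 0.11 for Atf5 and from -0.37 to 0.82 for Sesn2. Without O2 and O5 the values were -0.58 for Herpud1, 0.17 for Edem1, 0.32 for Atf5 and -0.58 for Sesn2, and without A4 and O3 -0.048 for Canx. Limma-voom gave -0.49 for Herpud1, 0.16 for Edem1, 0.38 for Atf5 and -0.35 for Sesn2, limma on the deposited values -0.015 for Canx and -0.12 for Herpud1, and the replicate block -0.14 for Herpud1. Old and Adult mice that share a replicate number deviated in opposite ways (correlations -0.22 to -0.11). The correlations were -0.039 to 0.29 for PDX and Old mice and -0.047 to 0.15 for PDX and Adult mice, so in no comparison did every pair exceed 0.1 and the numbers were not taken to pair the mice. With the replicate block 7 of the 35 genes were called in Old mice. Asns and Chac1, at 0.52 to 16.6 and 0.72 to 3.97 CPM, had the least precision from depth.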
